A study of Mus musculus with 6 samples.

Results

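CD8-negative T cells, the class that holds the CD4 T cells, were taken by counts of marker genes from CD45+ immune cells of mouse brain. A barcode entered the set with at least 3 unique molecular identifier (UMI) counts of the T cell receptor genes Cd3d, Cd3e, Cd3g and Trac together. It also needed 0 counts of Cd8a and Cd8b1, 0 of the natural killer genes Ncr1 and Klre1, at most 1 of the B cell gene Cd79a, and at most 2 over 6 microglial genes (Tmem119, Olfml3, Gpr34, Crybb1, Golm1, Slc2a5) and 5 border macrophage genes (Mrc1, Pf4, Cbr2, Cd163, Lyve1). The rule found 210 of 17362 barcodes, and 206 of 17089 remained after quality filters, 172 of them in tumours. The same gates with at least 1 count of Cd8a or Cd8b1 gave 173 CD8-positive T cells, 166 of them in tumours, which served as the comparison. The genes of the rule describe the set and were given no test.

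The 6 libraries came from healthy brain (Trp53 wt, Rbpj wt), control gliomas (Trp53 ko, Rbpj wt) and Rbpj-deleted gliomas (Trp53 ko, Rbpj ko), with 2 libraries in each group, and were made with 10x 3' chemistry. Both deletions belong to the tumour: early lesions were located by the green fluorescence of a Cre reporter (Rosa-CAG::GFP) and micro-dissected, and the sequenced cells were the sorted CD45+ immune cells around them, so the Rbpj count of a T cell does not check a label. Pools are named in the series design (9 brains without tumour, 15 control gliomas and 9 Rbpj-/- gliomas), whereas the extraction text has single mice loaded per well. Nothing used here ties animals to libraries, so a p-value here weighs only how far these libraries scatter, and technical scatter is part of that. Fits and permutations used the tumour libraries, and the healthy libraries stand beside them as values.

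T cells without CD8 are mostly helper cells, which read antigen on major histocompatibility complex class II through CD4 and act through cytokines and the ligand CD40L. Regulatory T cells, defined by the transcription factor Foxp3, restrain other lymphocytes, and type 2 helper cells use Gata3 to make Il4, Il5 and Il13. Gamma-delta T cells carry a receptor built with the delta constant gene Trdc, mostly lack CD4 and CD8, and include resident producers of Il17a; all of these are rare in healthy brain and can enter gliomas. Rbpj is the DNA-binding partner through which Notch receptors act.

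In the tumours Il13, Il5 and Gata3 were found together in 1 set of the members, described further on. The 250 bases upstream of the annotated starts of Il13 and Il5 are therefore shown, since Gata3 reads a short GATA core and both cytokine genes lie on chromosome 11. The sequences are RefSeq's for GRCm38.p6, 5′ to 3′ on each gene's own strand, at chr11:53634703-53634952 on the minus strand for Il13 and chr11:53720544-53720793 on the plus strand for Il5, and capitals mark GATA or its reverse complement with no overlap between matches.
Il13: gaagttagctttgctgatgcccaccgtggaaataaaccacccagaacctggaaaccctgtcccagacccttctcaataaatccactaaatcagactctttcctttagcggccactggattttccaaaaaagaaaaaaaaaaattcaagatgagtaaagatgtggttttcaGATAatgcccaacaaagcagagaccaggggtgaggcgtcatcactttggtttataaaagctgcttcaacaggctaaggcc
Il5: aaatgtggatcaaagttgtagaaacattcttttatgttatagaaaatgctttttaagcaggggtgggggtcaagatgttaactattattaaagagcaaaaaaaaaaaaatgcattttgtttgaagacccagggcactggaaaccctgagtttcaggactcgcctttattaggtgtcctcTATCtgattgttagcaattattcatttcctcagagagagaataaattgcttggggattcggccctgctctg
Each window held 1 match, 80 bases before the start in Il13 and 71 bases before it in Il5. For Il4, also on chromosome 11 and not shown, the window of 1 annotated start held 3 matches and that of another start 0. Of 32851 mouse promoters of this length, 53.6% hold GATA on either strand and 9.6% hold 3 or more matches. The matches thus describe the letters and say nothing of binding.

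The rule itself fixes the presence of Cd3 genes or Trac, so these describe the set: Trac was detected in 66.7% and 60% of healthy members, 82.0% and 60% of control members and 92.6% and 80.4% of Rbpj-deleted members, in replicate order, and Cd3e in between 58.3% and 92.1% per library. Trbc2, a T cell receptor beta constant gene that the rule did not use, was detected in 80% to 95.7% of members per library. Kept barcodes per library numbered 756 to 7181, members 10 to 89, and the members' summed counts 58950 to 832256. The 10 members of control replicate 2 limit every tumour comparison. Few barcodes sat at the thresholds: 0 to 3 members per library held exactly 3 T cell receptor counts, 0 to 4 barcodes missed that gate with 2, and 0 to 5 missed the microglia and macrophage gate with 3.

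Some members carried RNA of other cells. At least 5 counts of the endothelial gene Cldn5 were found in 11 of 24 and 1 of 10 healthy members, in 1 of 89 and 0 of 10 control members and in 0 of 27 and 1 of 46 Rbpj-deleted members. In each healthy and each control library 2 members, and in the Rbpj-deleted libraries 0, held at least 20 counts of the neutrophil genes S100a8 and S100a9. These 8 barcodes had a median of 3 T cell receptor counts, Cd3d in 8 of 8 and Trac in 0 of 8, so their place in the set rests on Cd3d. Macrophage genes summed to 4798 and 4444 counts scaled to library size (CPM) in control members and 22440 and 10290 in Rbpj-deleted members, against 77270 to 94030 in microglia-gated barcodes of the tumours. The macrophage sums of both Rbpj-deleted libraries lay above both control libraries. The microglial genes P2ry12 and P2ry13 were at 0 in tumour members. Before the quality filters, libraries shared 29 to 105 barcode sequences with another library. After the filters, 2 members, both in control replicate 1, were among them.

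CD8-negative T cells were scarce in healthy brain, at 0.334% (exact 95% interval 0.214 to 0.497) and 0.388% (0.186 to 0.712) of kept barcodes. Control tumours held 7.28% (5.89 to 8.88) and 1.32% (0.636 to 2.42), and Rbpj-deleted tumours 0.894% (0.590 to 1.30) and 1.98% (1.45 to 2.63). Control replicate 1 stood far above the other libraries, and the 3 other tumour libraries overlapped between groups. The Rbpj-deleted mean was lower by 2.87 percentage points (exact permutation test, two-sided, p = 0.667, where 2 against 2 libraries cannot fall below 0.333). Of the 5 share comparisons made in this way, 4 had a Benjamini-Hochberg adjusted p of 0.833 and that of Cd4 had 1.0. Without control replicate 1 the difference was 0.112 points in the other direction. All such intervals cover counting error only.

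Among all gated T cells, CD8-negative cells made up 88.9% (70.8 to 97.7) and 71.4% (41.9 to 91.6) in healthy brain. Control tumours had 52.1% (44.3 to 59.7) and 25.6% (13 to 42.1), and Rbpj-deleted tumours 65.9% (49.4 to 79.9) and 52.9% (41.9 to 63.7). Both Rbpj-deleted libraries lay above both control libraries, though Rbpj-deleted replicate 2 and control replicate 1 were less than 1 percentage point apart. The difference of means was 20.5 points (exact permutation test, two-sided, p = 0.333, the smallest possible). CD8-positive cells were shallower in Rbpj-deleted tumours, with medians of 4680 and 4096 against 9038 and 8835 UMIs. The gate was also applied after thinning to 2000 UMIs, at 2 or more T cell receptor counts. Control tumours then had 52.02% and 14.74%, and Rbpj-deleted tumours 58.04% and 52.35%. That difference was 21.8 points (exact permutation test, two-sided, p = 0.333). The gate on microglial and macrophage counts removed 40.6% and 74.3% of CD8-negative barcodes with enough T cell receptor counts in the control libraries and 88.7% and 73.8% in the Rbpj-deleted ones, and the removed barcodes had median totals of 19490 to 31130 counts. With microglial and macrophage counts at 0 the difference was 15.0 points and with macrophage RNA under 2% it was 16.3 points (exact permutation test, two-sided, p = 0.667 for both), and Rbpj-deleted replicate 2 then lay below control replicate 1. The part of the gate in the share of kept barcodes was not tested.

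**Figure D1:**
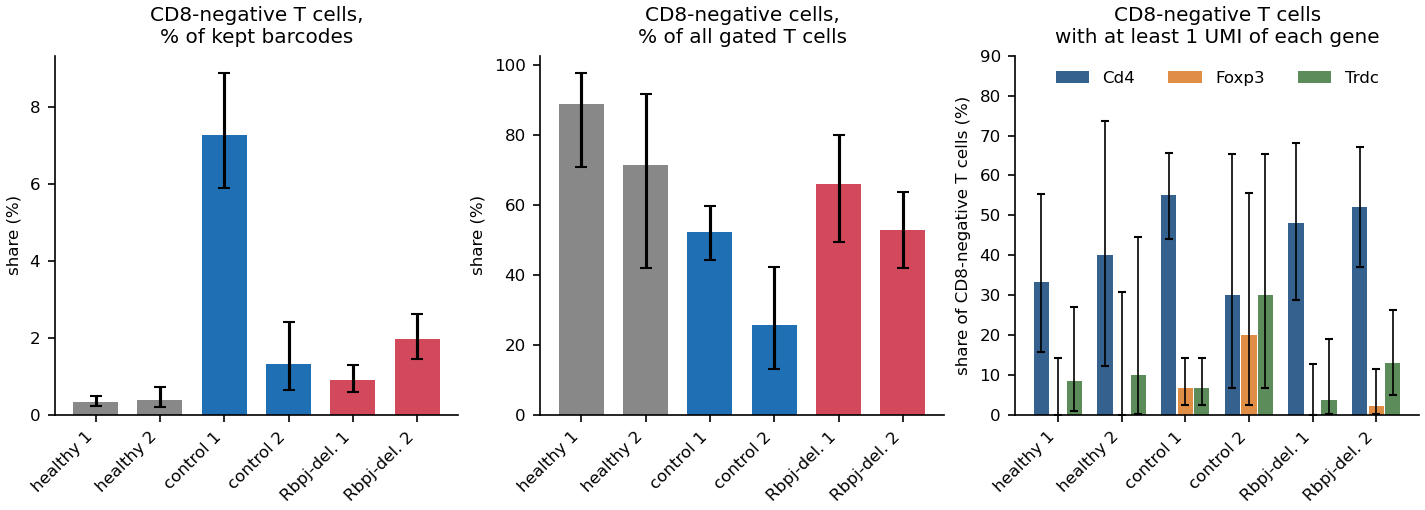
CD8-negative T cells by library: their share of kept barcodes (left), their share of all gated T cells (middle) and the share of them with at least 1 UMI of Cd4, Foxp3 or Trdc (right), all in percent with exact 95% intervals. Control replicate 1 reaches 7.28% of kept barcodes, while the other tumour libraries lie between 0.894% and 1.98%.

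Cd4, the coreceptor for class II, was detected in 8 of 24 and 4 of 10 healthy members. In tumours it was detected in 49 of 89 (55.1%, 44.1 to 65.6) and 3 of 10 (30.0%, 6.67 to 65.3) control members and in 13 of 27 (48.2%, 28.7 to 68.1) and 24 of 46 (52.2%, 37.0 to 67.1) Rbpj-deleted members. The Rbpj-deleted values lay between the 2 control values. The difference was 7.63 points (exact permutation test, two-sided, p = 1.0), and it turned to -8.24 when at least 2 UMIs were required and to -4.90 without control replicate 2. Over the tumours 89 of 172 members (51.7%) held Cd4, against 9 of 166 CD8-positive cells (5.42%) and 5.64% of 2658 microglia-gated barcodes. The median member had 4817 UMIs and the median microglia-gated barcode 9175, so the members' share lay far above the background at lower depth. After thinning each cell to 2000 UMIs the members' share was 30.1% of 163 cells.

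Foxp3 was found in 0 of 24 and 0 of 10 healthy members, which, at 3 cells of the total, allows shares of cells with a UMI of up to 12.5% and 30.0%. It was found in 6 of 89 (6.74%) and 2 of 10 (20%) control members and in 0 of 27 (by the same limit up to 11.1%) and 1 of 46 (2.17%) Rbpj-deleted members. Both control libraries lay above both Rbpj-deleted libraries, on 9 cells in all, and the limit on Rbpj-deleted replicate 1 reaches above control replicate 1. The difference was -12.3 points (exact permutation test, two-sided, p = 0.333, the smallest possible), and it ran from -18.9 to -5.66 when each library was left out in turn. With members thinned to 2000 UMIs it was -0.53 points (exact permutation test, two-sided, p = 1.0), with 3.45% and 0% in control and 0% and 2.38% in Rbpj-deleted libraries, so the groups overlapped at equal depth. Before thinning the Rbpj-deleted members were shallower, with medians of 3700 and 2888 against 5666 and 5360 UMIs. Microglia-gated barcodes held Foxp3 in 0 of 2658 and CD8-positive cells in 2 of 166.

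Trdc was detected in 2 of 24 and 1 of 10 healthy members, in 6 of 89 (6.74%) and 3 of 10 (30.0%) control members and in 1 of 27 (3.70%) and 6 of 46 (13%) Rbpj-deleted members. The groups overlapped, and the difference of -10.0 points (exact permutation test, two-sided, p = 0.667) became 1.63 points without control replicate 2. Over the tumours 16 of 172 members (9.30%) held Trdc, against 2 of 166 CD8-positive cells and 0.452% of microglia-gated barcodes.

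These 3 genes split the 172 tumour members into 82 with Cd4 alone, 7 with Cd4 and Foxp3, 2 with Foxp3 alone, 16 with Trdc alone and 65 with none. Co-detected genes are given as counts of cells with at least 1 UMI, as descriptions without a test. Among the 82 cells with Cd4 alone, Trac was found in 81, the inhibitory receptor gene Ctla4 in 51, the costimulatory receptor gene Tnfrsf4 (OX40) in 50, the chemokine genes Ccl4 and Ccl5 in 46 each, Cd40lg (CD40 ligand) in 42 and Ifng (interferon gamma) in 39. Transcripts of helper function, activation and interferon gamma were thus each found in a large part of these cells.

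Other genes of regulatory T cells were detected in all or part of the 9 Foxp3-positive cells. Tnfrsf4 was found in 9, Ctla4 in 8, Tnfrsf18 (GITR) in 8, Il2ra (the interleukin 2 receptor alpha chain, CD25) in 5 and Ikzf2 (Helios) in 4. The chemokine receptor gene Cxcr3, a member of the type 1 list, was found in 9. Of the 163 Foxp3-negative members, 74 held Tnfrsf4, 80 Cxcr3, 78 Ctla4, 47 Tnfrsf18, 48 Il2ra and 7 Ikzf2. Summed Ctla4 was 2177 CPM in the 9 cells and 433.8 CPM in the others, and Tnfrsf4 2016 and 626.3 CPM. The Foxp3-positive cells were deeper, with a median of 8741 against 4691 UMIs, and the part of depth in the detection counts was not tested. No library set allowed a test of this class.

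The 16 Trdc-positive cells were set apart by another group of genes. Cd163l1 (SCART1, a scavenger receptor of gamma-delta T cells) and the membrane protein genes Tmem176a and Tmem176b were each found in 16, the gamma constant gene Tcrg-C1 in 15, Il7r (the interleukin 7 receptor) in 14 and Rora in 13. The kinase gene Blk was found in 10, Il23r in 7, Tcrg-C4 in 6 and Il17a in 5. Trac was found in 4, Ctla4 in 3, and Tnfrsf4 and Ifng in 0. Il17a, the cytokine of this kind of gamma-delta cell, summed to 14.4 and 0 CPM in control members and 0 and 327 CPM in Rbpj-deleted members, and 1 cell held 72.2% of its tumour UMIs.

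The 65 members with none of the 3 marker genes were shallower, with a median of 3700 UMIs against 5314 in cells with Cd4 alone. Trbc2 was found in 53 of them, Trac in 48, the costimulatory receptor gene Cd28 in 37, Ccl5 in 32, Ifng in 19 and Tcrg-C1 in 6. A barcode with 0 counts of Cd4 at this depth is not shown to lack it. The same holds for the 0 counts of Cd8a and Cd8b1 that define all members. Nkg7 and Klrd1, also found in killing cells, were detected in 28 and 13 of the 65. Among the 82 cells with Cd4 alone they were detected in 53 and 16. The part of missed Cd8a and Cd8b1 counts in the set was not tested.

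**Figure D2:**
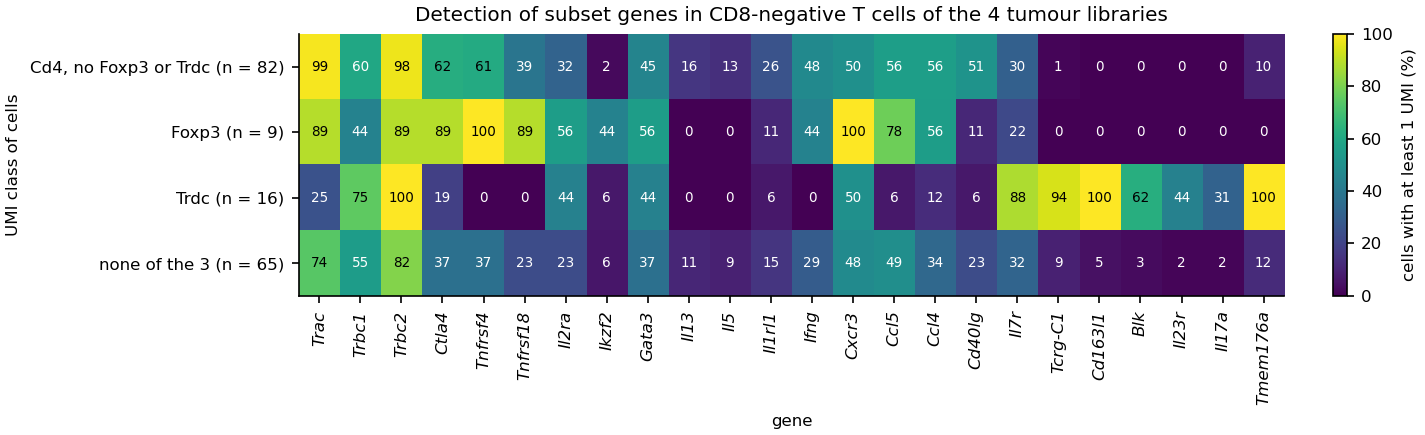
Percent of cells with at least 1 UMI of each gene (columns) in 4 classes of tumour CD8-negative T cells (rows, with cell numbers), coloured from 0 to 100%. Trdc-positive cells show Tcrg-C1, Cd163l1 and Tmem176a (15, 16 and 16 of 16 cells) and Foxp3-positive cells Tnfrsf4 and Ctla4 (9 and 8 of 9), while Cd4 cells and cells with none of the 3 genes share most of the other genes.

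Il13 marked a further set of cells, chosen after its values had been seen and described without a test. Il13 was found in 13 of 89 and 0 of 10 control members and in 5 of 27 and 2 of 46 Rbpj-deleted members, with 1449, 0, 332 and 46 UMIs in the same order. Most of these cells and counts came from control replicate 1, and 1 cell held 21.0% of the tumour members' Il13 UMIs. Of these 20 cells, 20 held Trac, 19 Cd3e, 19 Gata3, 18 Cd40lg, 17 Il1rl1 (the receptor of interleukin 33), 17 Tnfrsf4, 17 Pdcd1 (PD-1), 14 Il5, 13 Il4 and 13 Cd4. Trac and Cd3e belong to the rule that chose the members. Type 2 innate lymphoid cells also make Il13 and carry Gata3 and Il1rl1, and which of these kinds of cell the set holds was not tested.

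The cells with Il13 held few transcripts of the interferon gamma programme. Ifng was found in 2 of the 20, Ccl5 in 3, Cxcr3 in 1 and Foxp3 in 0. Of the 152 Il13-negative tumour members, 60 held Ifng, 83 Ccl5, 88 Cxcr3, 54 Gata3, 16 Il1rl1, 3 Il5 and 3 Il4. Less Ifng, Ccl5 and Cxcr3 was thus detected in the deeper cells, whose median was 10310 against 4534 UMIs. Mki67, a proliferation gene, was found in 11 of the 20.

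By library, summed Il13 was 0 and 32.5 CPM in healthy members, 1741 and 0 in control members and 2296 and 225 in Rbpj-deleted members. Il5 was 96.1 and 0 CPM in control members and 152 and 151 in Rbpj-deleted members. An edgeR fit without control replicate 2 gave Il5 a log2 difference of 0.66 ± 0.49 and did not call it. Areg, which encodes the growth factor amphiregulin, was 113 and 0 CPM in control members and 740 and 87.9 in Rbpj-deleted members. Each of the 3 genes was at 0 in control replicate 2, whose 10 members held 58950 counts, and Il13 and Areg overlapped between tumour groups.

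CD8-negative and CD8-positive T cells of the same tumours differed in named helper, type 2, memory and killing genes. The split was made on Cd8a and Cd8b1 in these cells, so those genes have no test. The planned comparison, within libraries, kept the libraries with at least 20 cells of both classes, control replicate 1 and Rbpj-deleted replicate 2, leaving 1 residual degree of freedom. It called 304 of 6112 genes (4.97%), 224 (3.66%) higher and 80 (1.31%) lower in CD8-negative cells, by edgeR's quasi-likelihood test at Benjamini-Hochberg adjusted p under 0.05. A fit of all 4 tumour libraries, chosen after seeing the data, called 278 of 4692 genes (5.92%), and 179 genes were called by both.

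Cd4 summed to 179, 170, 152 and 205 CPM in CD8-negative cells of control replicates 1 and 2 and Rbpj-deleted replicates 1 and 2, and to 11.5, 6.92, 0 and 12.9 CPM in CD8-positive cells. Every CD8-negative value lay above every CD8-positive one. The log2 difference was 3.94 ± 0.36 (SE), edgeR adjusted p = 3.53e-08. Cd40lg, the helper ligand that licenses B cells and dendritic cells, was 167, 17.0, 207 and 112 CPM against 11.5, 0, 0 and 3.21 CPM, higher in all 4 libraries (log2 4.01 ± 0.41, edgeR adjusted p = 2.68e-07).

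Of 10 tested genes of the regulatory T cell list, 6 were higher in CD8-negative cells and 0 lower, with a median log2 difference of 1.37, against -0.0037 over all tested genes. Foxp3 itself was too sparse to be tested, and Ctla4, Il2ra and Tnfrsf4 also mark activated helper cells. Tnfrsf4 was 834, 373, 284 and 727 CPM against 130, 17.3, 21.1 and 80.3 CPM, with no overlap (log2 2.87 ± 0.24, edgeR adjusted p = 1.19e-08). Il2ra was 221, 119, 138 and 415 CPM against 27.8, 13.8, 10.5 and 154 CPM. It was higher within every library and overlapped between them (log2 2.20, edgeR adjusted p = 0.000204). Ctla4 was 596, 305, 456 and 586 CPM against 289, 363, 137 and 106 CPM. It was called in the 2 libraries (log2 1.61 ± 0.32, edgeR adjusted p = 0.0145) and not over all 4 (adjusted p = 0.227), control replicate 2 going the other way.

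Type 2 genes followed, with 4 of 7 tested members higher and 0 lower (median log2 1.99). Gata3 was 422, 136, 560 and 127 CPM in CD8-negative and 84.3, 51.9, 42.1 and 54.6 CPM in CD8-positive cells. It was higher in all 4 libraries without overlap (log2 1.99, edgeR adjusted p = 3.29e-05). Il13, at 60.3, 0, 0 and 0 CPM in CD8-positive cells, had a log2 difference of 5.01 ± 0.36 (edgeR adjusted p = 3.53e-08), and adjusted p = 0.0644 over all 4 libraries. Il1rl1 (log2 2.43) and Ccr8 (log2 2.67), a chemokine receptor gene of type 2 and regulatory cells, were the other called members.

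Naive and memory genes were higher in 5 of 11 tested cases and lower in 0 (median log2 1.40). Il7r was 258, 475, 111 and 259 CPM against 43.1, 17.3, 52.6 and 32.1 CPM, with no overlap (log2 2.7 ± 0.28, edgeR adjusted p = 3.12e-07). Klf2, a transcription factor of T cell quiescence and exit from tissue, had a log2 difference of 1.40. In the costimulation list 5 of 14 were higher and 0 lower, among them Icos (log2 1.26, edgeR adjusted p = 0.0063). Tnfsf8, the CD30 ligand gene, was called higher in the cytokine list (log2 2.53). The transcription factor gene Maf was higher (log2 2.42), and Zbtb7b (ThPOK, which fixes the CD4 lineage) had a log2 difference of 2.03 that was not called (edgeR adjusted p = 0.0589).

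Killing genes were lower. Of 15 tested cytotoxic genes 12 were lower in CD8-negative cells and 1 higher, with a median log2 of -1.90; the higher one was Fcer1g, an Fc receptor chain that myeloid cells also express. Prf1 (perforin) was 12, 33.9, 6.92 and 4.88 CPM against 618, 253, 263 and 164 CPM, far apart in every library (log2 -5.63 ± 0.36, edgeR adjusted p = 5.6e-11). Gzmb (granzyme B) was 33.6, 288, 0 and 337 CPM against 729, 1117, 895 and 3951 CPM. It was lower without overlap (log2 -3.93 ± 0.28, edgeR adjusted p = 1.89e-09) but was not called over all 4 libraries (adjusted p = 0.124). Gzma (log2 -5.18), Gzmk (log2 -2.86) and the killer lectin receptor genes Klrc1 (log2 -4.78), Klrd1 (log2 -2.88) and Klrk1 (log2 -2.50) were also called lower, with Klrc1 sharing 53% of its 31-base words with other genes, which makes its count uncertain.

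The inhibitory receptor list was mixed, with 4 of 10 lower and 1 higher. Havcr2 (TIM-3) was 14.4, 0, 34.6 and 19.5 CPM against 131, 149, 179 and 89.9 CPM (log2 -2.92), and Lag3 had a log2 difference of -1.48. Pdcd1 was 353, 492, 249 and 283 CPM against 754, 598, 547 and 244 CPM and was not called (log2 -0.55, edgeR adjusted p = 0.457), and neither was Tox (log2 -0.04), a factor of exhausted T cells. Ifng was 322, 475, 332 and 722 CPM against 725, 1179, 1968 and 633 CPM, lower in 3 of 4 libraries and not called (log2 -0.52, edgeR adjusted p = 0.554). Of 17 cell cycle genes 8 were lower in CD8-negative cells and 0 higher (median log2 -1.01). Their summed level was 4507, 1323, 3914 and 3475 CPM in CD8-negative and 5868, 7013, 3263 and 10030 CPM in CD8-positive cells, so Rbpj-deleted replicate 1, outside the planned fit, went the other way.

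Other differences moved with technical measures. CD8-negative cells were shallower within each tumour library, with medians of 2888 to 5666 against 4096 to 9038 UMIs. With every cell thinned to 2000 UMIs, 50 of 2167 tested genes were called, 44 of them among the 304. DESeq2 called 65 of 6112. Stress genes were higher in 10 of 17 and macrophage genes in 8 of 12 tested cases, and Lyz2 (lysozyme of myeloid cells; log2 2.38) turned to -0.90 when members with at least 2% macrophage RNA were left out. Cldn5 had 226 UMIs in 2 CD8-negative barcodes, 213 of them in 1 barcode of control replicate 1, and 0 in CD8-positive cells (at least 98.5-fold higher against a floor of 3 counts over the group). The blood vessel genes Ptn, Cxcl12 and Slco1c1 also came mostly from that barcode, with 86 of 102, 58 of 81 and 62 of 69 UMIs there. The part of depth and foreign RNA in the other calls was not tested beyond these values.

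**Figure D3:**
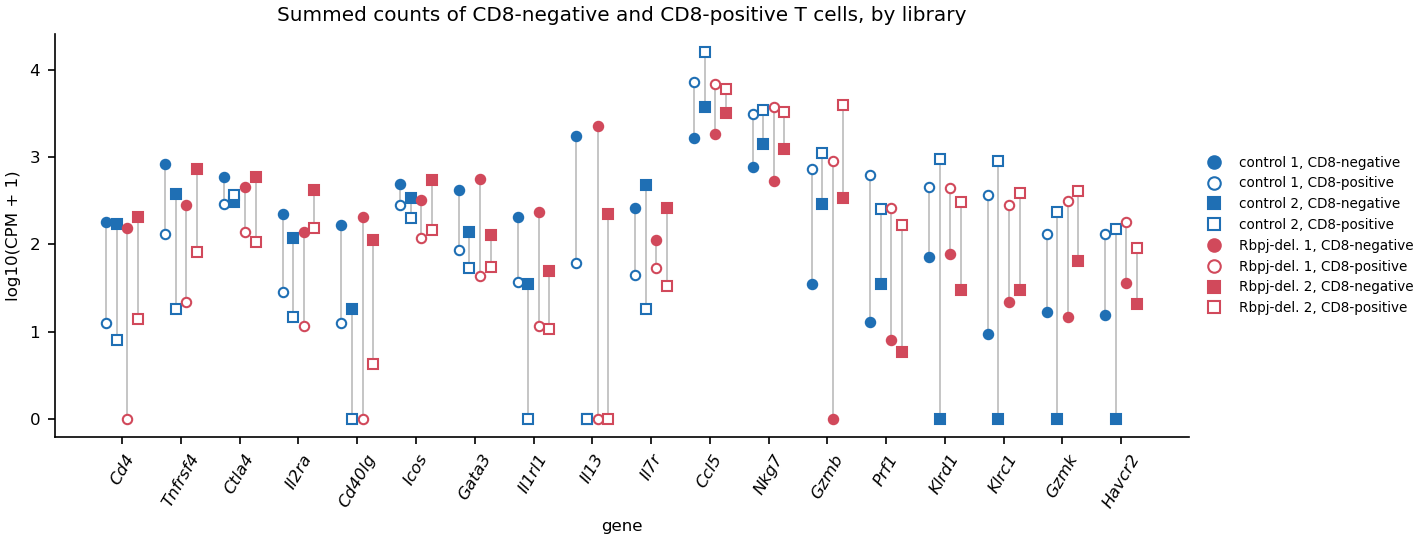
Summed counts of 18 genes in CD8-negative (filled) and CD8-positive (open) T cells of each tumour library on a log10(CPM + 1) scale, with grey lines joining the classes of 1 library. Cd4, Tnfrsf4, Cd40lg, Gata3 and Il7r lie higher and Prf1, Klrc1, Havcr2 and Ccl5 lower in the CD8-negative cells of all 4 libraries.

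Within the members, cells with Cd4 or Foxp3 were compared with cells that had none of Cd4, Foxp3 and Trdc, in the 3 tumour libraries with at least 10 cells of both classes. edgeR called 4 of 2089 genes (0.191%), and 73 had an unadjusted p under 0.05. Ccl4, which encodes the chemokine MIP-1 beta, was higher in the Cd4 or Foxp3 cells (log2 1.67 ± 0.33, edgeR adjusted p = 0.0437). Its UMIs were 528 against 88, in classes of unlike total counts. Over the 4 tumour libraries, cells with Cd4 alone held 741702 counts and cells without markers 319329. The call was lost with DESeq2 size factors (edgeR adjusted p = 0.0704), without the quality filter (0.0987), with at least 5 T cell receptor counts (0.183) and with thinning to 2000 UMIs (0.886), at log2 values of 1.41 to 2.02. Macrophage genes lay on the same side in 11 of 12 tested cases (median log2 1.05, 0 called), and their part was not tested. The other 3 called genes, Cldn5, Cxcl12 and Tsc22d1, were higher in the cells without markers, and that same barcode of control replicate 1 held 213 of 226, 58 of 81 and 95 of 119 of their UMIs in tumour members. Ctla4 (log2 1.05, edgeR adjusted p = 0.547) and Il13 (log2 -0.31, edgeR adjusted p = 0.9995) were not called. With barcodes of endothelial or neutrophil RNA left out, edgeR called 4 of 2128 genes, 4 higher and 0 lower in the Cd4 or Foxp3 cells. Ccl4 was among them (edgeR adjusted p = 0.0213). For most genes no difference between these classes was detectable at this depth.

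Few genes separated CD8-negative T cells of Rbpj-deleted and control tumours. With all 4 libraries, a fit added after seeing the data, edgeR called 3 of 3002 genes (0.0999%), H2-T22, Tpm3-rs7 and Akr1c18, all higher in Rbpj-deleted tumours, and 125 genes had an unadjusted p under 0.05. The planned fit left out control replicate 2 for its 10 members, so its control group was 1 library and its spread came from the 2 Rbpj-deleted libraries alone. It called 72 of 4093 genes (1.76%), 49 (1.2%) higher and 23 (0.562%) lower, and the same 3 genes were shared by both fits. In 27 of the 72 genes control replicate 2 overlapped the Rbpj-deleted libraries.

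Both H2-T22, a class I gene of the major histocompatibility complex on chromosome 17 (36037128-36042747, mm10), and Tpm3-rs7, a tropomyosin-related sequence, showed the same split outside T cells. H2-T22 was 6.78 and 114 CPM in healthy members, 12 and 17 in control members and 297 and 327 in Rbpj-deleted members (log2 4.67 ± 0.59, edgeR adjusted p = 7.21e-12 and 0.0211 over all 4 libraries). It was 347 and 241 CPM in CD8-positive cells of Rbpj-deleted tumours against 0.957 and 13.8 in controls, and 103 and 88.9 against 1.47 and 1.60 in microglia-gated barcodes. Healthy replicate 2 lay between the tumour groups in members.

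Tpm3-rs7 was 20.3 and 244 CPM in healthy, 28.8 and 0 in control and 422 and 547 in Rbpj-deleted members (log2 4.06 ± 0.56, edgeR adjusted p = 5.94e-10 and 0.0309 over all 4 libraries). In microglia-gated barcodes it was 18.9 and 383 in healthy, 24.8 and 17.0 in control and 329 and 379 in Rbpj-deleted libraries, so healthy replicate 2 lay with the Rbpj-deleted libraries there too. H2-T22 shares 51.0% and Tpm3-rs7 78.6% of its 31-base words with other genes, so both counts are uncertain. Tpm3, the related tropomyosin gene, was called in the other direction (log2 -2.31), at 393 and 97.4 CPM in healthy, 517 and 509 in control and 111 and 97.6 in Rbpj-deleted members. The Y-linked gene Ddx3y was also called lower (log2 -2.63), and sex-linked genes summed to 184 and 84.8 CPM in control and 20.8 and 34.2 in Rbpj-deleted members. Ddx3y was lower in Rbpj-deleted microglia-gated barcodes too, at 15.8 and 22.1 against 92.4 and 79.7 CPM. Akr1c18, which encodes a steroid reductase, was found in 5 tumour members, with 56.6% of its UMIs in 1 cell. The part of this split between libraries, and of the sex of the animals, in the calls was not tested.

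Among the other genes of the planned fit were 2 inflammatory chemokine genes, Ccl4 and Ccl3. Microglia-gated barcodes held more Ccl4 than the members, at 5114 and 4065 CPM in control and 7829 and 2408 CPM in Rbpj-deleted libraries. Their Ccl3 was 2449 and 1890 CPM in control and 3695 and 1163 CPM in Rbpj-deleted libraries. The part of RNA of other cells in the 2 calls was not tested. Ccl4 was 40.7 and 48.7 CPM in healthy members, 180 and 254 in control members and 2213 and 732 in Rbpj-deleted members, both of the last above all others (log2 3.03 ± 0.50, edgeR adjusted p = 1.69e-06, but 0.309 over all 4 libraries). Ccl3 was 67.3 and 339 CPM in control and 1272 and 278 in Rbpj-deleted members (log2 3.52 ± 0.63, edgeR adjusted p = 0.000157), with control replicate 2 inside the range of the Rbpj-deleted libraries. Tnf had a log2 difference of 1.80 (edgeR adjusted p = 0.0465), although control replicate 2, at 254 CPM, exceeded both Rbpj-deleted libraries, at 187 and 142.

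Interferon-induced genes were higher in 4 of 21 tested cases and lower in 0, with a median log2 of 0.64, against 0.018 over all tested genes. Ifit3, an antiviral effector, was 9.61 and 84.8 CPM in control and 104 and 127 in Rbpj-deleted members (log2 3.56 ± 0.69, edgeR adjusted p = 7.2e-05). Control replicate 2 lay close to the Rbpj-deleted values. Iigp1 (log2 2.18), an interferon-inducible GTPase gene, Ifit1 (log2 2.19) and Irf7 (log2 1.64), a transcription factor of the interferon response, were the others. None of the 4 was called over all 4 libraries. For Iigp1, control replicate 2 overlapped the Rbpj-deleted libraries. In microglia-gated barcodes Iigp1 went the other way, at 425 and 358 CPM in control and 160 and 166 CPM in Rbpj-deleted libraries.

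Macrophage genes were higher in 7 of 12 tested cases and microglial genes in 3 of 6, with median log2 values of 1.82 and 2.30 and 0 lower in both. Lyz2 was 1715 and 187 CPM in control and 7897 and 4149 in Rbpj-deleted members (log2 1.82), and C1qb, a complement gene of macrophages, had a log2 difference of 2.11. Members with at least 2% of their counts in macrophage genes numbered 3 and 0 in control and 7 and 4 in Rbpj-deleted libraries. Without them 48 genes were called, 23 of them higher. Of the 72 called genes, 35 lay on the same side without overlap in microglia-gated barcodes, as did 28.3% of all 4093 tested genes. The part of macrophage RNA in the other calls was not tested.

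Most lists of T cell subset genes held no gene called between the tumour groups. The fit called 0 of 8 regulatory T cell genes (median log2 -0.24), 0 of 9 type 2 genes (-0.47), 0 of 9 naive and memory genes, 0 of 13 costimulation genes, 0 of 7 inhibitory receptor genes, 0 of 13 T cell receptor genes, 0 of 15 cell cycle genes and 0 of 4 Notch pathway genes (0.23). Cd4 (log2 0.01 ± 0.45), Ctla4 (-0.19 ± 0.45), Il2ra (0.35 ± 0.45), Gata3 (-0.32 ± 0.48) and Tnfrsf4 (-0.71 ± 0.45) each had an edgeR adjusted p of 0.9995. With standard errors of this size, no difference in them was detectable at this depth. The exceptions among subset lists were Tnf of the type 1 list, given above, and Tmem176a (log2 1.95) and Tmem176b (log2 2.10) of the type 17 list. Both Tmem176 genes are also expressed by macrophages. The 16 Trdc-positive cells held 115 of 161 Tmem176a UMIs and 101 of 166 Tmem176b UMIs of the Foxp3-negative tumour members. The part of either source in the 2 calls was not tested. Both Tmem176 genes turned negative without control replicate 1 (-1.12 and -0.58, all 4 libraries). In the cytotoxic list Ccl3 and Ccl4 were higher and Xcl1 lower of 11 tested, and in the cytokine list Tnf was higher and Tnfsf8 lower of 12.

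Stress and early response genes were higher in 3 of 17 tested cases and lower in 0, with a positive log2 value in 15 (median log2 0.50). Hspa1a, a heat shock protein gene that shares 65.4% of its 31-base words with other genes, was 224 and 1250 CPM in healthy, 272 and 543 in control and 740 and 1864 in Rbpj-deleted members (log2 2.27). Jun, an early response transcription factor gene, was 318 and 831 CPM in control and 636 and 1625 in Rbpj-deleted members (log2 1.84), with control replicate 2 between the Rbpj-deleted libraries. Hspa1b (log2 2.23) was the other called gene, and there too control replicate 2 overlapped the Rbpj-deleted libraries.

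Rbpj itself was 40.7 and 81.2 CPM in healthy members, 145 and 153 in control members and 270 and 127 in Rbpj-deleted members. The tumour groups overlapped (log2 0.43 ± 0.45, edgeR adjusted p = 0.9995), as did Rbpj in CD8-positive cells, at 151 and 239 against 221 and 51.4 CPM. Notch2, a receptor gene of the pathway, was 139 and 339 CPM in control and 104 and 58.6 in Rbpj-deleted members. The planned fit, without control replicate 2, did not call it (log2 -0.81). In the comparison with CD8-positive cells Notch2 was the 1 called of 5 tested pathway genes (log2 1.52).

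Several falls of the planned fit rested on few barcodes. S100a9 had 220 UMIs in 2 members of control replicate 1 and 0 in Rbpj-deleted members (at least 30.8-fold lower), and Hspb1, a small heat shock protein gene, 86 UMIs in the 1 member with endothelial RNA and 0 (at least 12-fold lower). The chemokine gene Xcl1 (log2 -2.60) had 76.5% of its UMIs in 1 cell. Tnfsf8 (log2 -1.81) had 197 UMIs in 24 members of control replicate 1, 0 in control replicate 2 and 18 and 4 in the Rbpj-deleted libraries, so control replicate 2 did not share the high level.

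**Figure D4:**
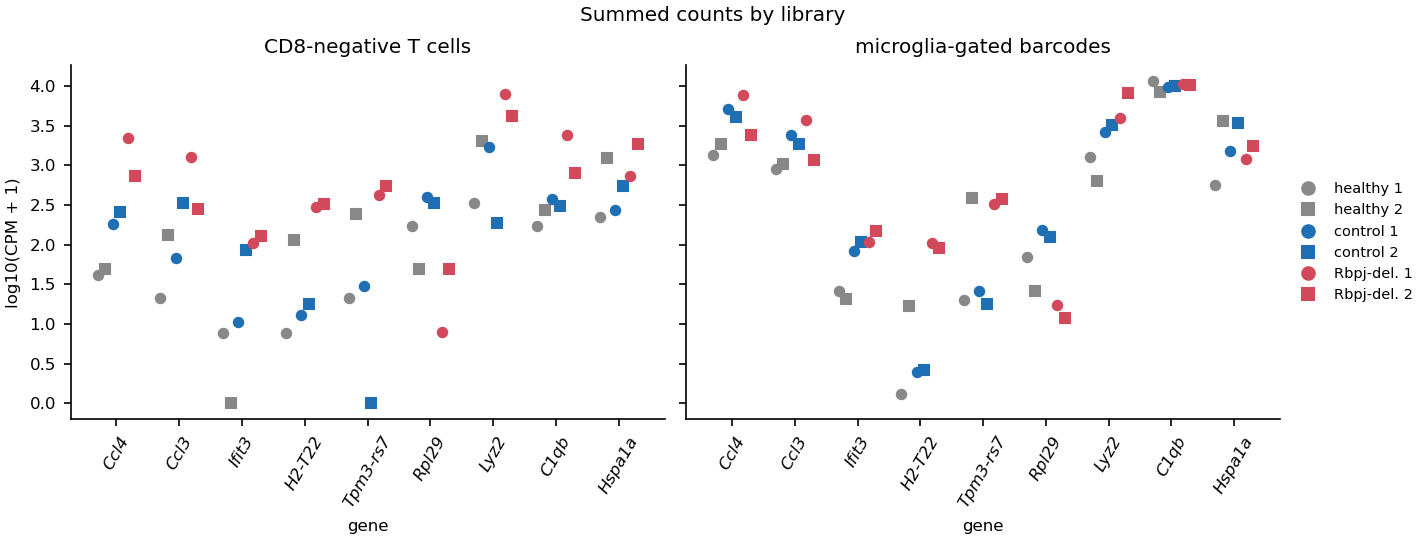
Summed counts of 9 genes on a log10(CPM + 1) scale in CD8-negative T cells (left) and microglia-gated barcodes (right), 1 point per library. H2-T22 and Tpm3-rs7 separate the tumour groups in both panels. Ccl4 separates them in the members (180 and 254 against 2213 and 732 CPM). In microglia-gated barcodes the Ccl4 levels are higher and overlap between the groups (5114 and 4065 against 7829 and 2408 CPM).

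Whether the Rbpj contrast differed between CD8-negative and CD8-positive T cells was tested as an interaction over the 4 tumour libraries. edgeR called 2 of 4692 genes (0.0426%), Ccl4 and Areg, and 117 had an unadjusted p under 0.05. Ccl4 was 2043 and 3918 CPM in CD8-positive cells of control tumours and 5210 and 710 in those of Rbpj-deleted tumours, overlapping, whereas in CD8-negative cells the groups were apart. Its interaction was log2 3.16 ± 0.41 (edgeR adjusted p = 0.00593). Without members with at least 2% macrophage RNA the interaction was log2 2.99 and was not called (edgeR adjusted p = 0.9985). Areg was 69.9 and 0 CPM in control and 0 and 0 in Rbpj-deleted CD8-positive cells, so its log2 interaction of 8.82 ± 1.36 (edgeR adjusted p = 0.00949) depends on the prior count and is no measure of size. Il5 (edgeR adjusted p = 0.144) and Il13 (0.176) were not called.

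Healthy members are given as values, since 24 and 10 cells, many with endothelial RNA, allowed no fit. For Lef1, a transcription factor gene of naive T cells, the levels were 325 and 195 CPM in healthy members and 48.1, 84.8, 6.92 and 63.5 CPM in tumours. Ccr7, the lymph node homing receptor gene, was 244 and 487 CPM against 49.3, 0, 6.92 and 34.2 CPM, and Klf2 3158 and 1850 CPM against 345, 1001, 201 and 722 CPM. Both healthy libraries lay above all 4 tumour libraries for these 3 genes. The 11 and 1 members with endothelial RNA held 38 of 48 and 3 of 12 Lef1 UMIs, 20 of 36 and 2 of 30 Ccr7 UMIs and 379 of 466 and 49 of 114 Klf2 UMIs. In the other 13 and 9 healthy members Lef1 was 190 and 212 CPM, Ccr7 303 and 660 CPM and Klf2 1650 and 1532 CPM, still above all 4 tumour libraries. Activation genes were low, with Ctla4 at 0 and 0 CPM in healthy against 305 to 596 CPM in tumours, Pdcd1 at 13.6 and 0 CPM against 249 to 492, and Ifng at 6.78 and 0 CPM against 322 to 722.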

How the data were processed

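The deposited table holds counts, taken as UMI counts because all values are whole; the submitters' processing notes name kallisto 0.46.0, bustools 0.39.3 and mm10. The authors deposited only barcodes of at least 1000 counts. Of 27378 gene IDs, 27359 matched a symbol. Barcodes with under 500 genes or over 10% mitochondrial counts were removed, as were copies of a barcode with over 10 times the counts in another library (4 members removed); no doublet caller was run. Total counts per library were 17430763 to 55229031. Members, gene lists and tests were chosen with earlier results of these data known.

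Sums of counts over the cells of a class in a library entered edgeR 4.0.16 (filterByExpr, TMM, robust quasi-likelihood test, Benjamini-Hochberg over all tested genes); DESeq2 1.42.0 was an alternative. Planned fits needed at least 20 cells per library and class (10 within members). Genes of the rule were left out of counts of calls. Shares were compared by exact permutation over libraries, with exact Clopper-Pearson intervals at 95%. Microglia-gated barcodes held at least 5 counts of the 6 microglial genes. Named genes were the 10 largest called rises and falls of at least 50 CPM with all libraries in 1 direction, up to 4 genes of smallest p per list, and a set of T cell genes; others named were chosen after their values were seen. Scripts were tested on simulated data.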

Additional observations from a re-analysis of the deposited data

Results flagged for a closer look

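The Rbpj contrast of 2 genes differed between CD8-negative and CD8-positive T cells by the interaction test over 4 tumour libraries. Ccl4 had a log2 interaction of 3.16: the mean was 217 ± 52.5 CPM (SD, n = 2) in control and 1473 ± 1047 CPM in Rbpj-deleted CD8-negative cells, and 2981 ± 1326 and 2960 ± 3182 CPM in CD8-positive cells. Without members with at least 2% macrophage RNA it was log2 2.99 and was not called (edgeR adjusted p = 0.9985). Areg had a log2 interaction of 8.82, with means of 56.5 ± 79.9 and 414 ± 461 CPM in CD8-negative cells and 35.0 ± 49.4 and 0 CPM in CD8-positive cells. Its call was lost under DESeq2 (adjusted p = 0.9998), and with cells thinned to 2000 UMIs (edgeR adjusted p = 0.0557), and without control replicate 1 or Rbpj-deleted replicate 1. No group held the 4 or more libraries needed to look for single outlying libraries.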

How the results depend on the processing

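Counts of called genes moved by over 1.5 times in these cases, and the cause was not tested. The number of tested genes moved as well. Thinning left 2009 tested genes against 4093 for the Rbpj contrast and 2167 against 6112 for the comparison with CD8-positive cells. Within members it left 660 against 2089. Without a filter 13063 genes were tested within members, and 14773 against 4692 for the interaction. For Rbpj-deleted against control members (72 genes), DESeq2 gave 12 and thinning to 2000 UMIs 20. With all 4 libraries the count was 3, with DESeq2 9, with microglial and macrophage counts at 0 6, without shared barcodes 3, with macrophage RNA under 2% 4, without endothelial or neutrophil RNA 6, with thinning 12, and 13 to 108 when each library was left out (108 without control replicate 1, 17 and 13 without Rbpj-deleted replicates 1 and 2). With the replicate block over all 4 libraries it was 12. The replicate differences of control and Rbpj-deleted tumours correlated at -0.004 in members and at -0.322 in all kept barcodes (3006 genes each). The member value rests on the few cells of control replicate 2, so it cannot decide whether same-numbered libraries belong together. Whether they do was not tested. For CD8-negative against CD8-positive cells (304), DESeq2 gave 65, thinning 50, leaving out shared barcodes 161 and a CD8-positive gate of 2 counts 468. With all 4 libraries DESeq2 gave 197, macrophage RNA under 2% 195, no endothelial or neutrophil RNA 176, thinning 83, and leaving out each library 111 to 221 (lowest without Rbpj-deleted replicate 2; 181 when control replicate 1 and 193 when Rbpj-deleted replicate 1 was left out). For the interaction (2), microglial and macrophage counts at 0 gave 5, at least 5 T cell receptor counts 4, no filter 13, DESeq2 1, macrophage RNA under 2% 1, no endothelial or neutrophil RNA 4, thinning 5, and leaving out each library 12 to 27. For Cd4 or Foxp3 cells against cells without markers (4), at least 5 T cell receptor counts gave 0 with edgeR (50 at unadjusted p under 0.05; DESeq2 called 3 under the unchanged gate), no filter 62 and thinning 1.

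Leaving out each library moved the member share difference between -5.84 and 0.112 points, the CD8-negative share between 7.32 and 33.7, Cd4 between -4.90 and 20.2, Foxp3 between -18.9 and -5.66 and Trdc between -21.6 and 1.63. Cd4 was -8.24 at 2 UMIs. Foxp3 was -5.60 at 2 UMIs and -0.53 with members thinned to 2000 UMIs. Without control replicate 1 (all 4 libraries) Tmem176a turned to -1.12, Tmem176b to -0.58, Tnf to -0.79, Xcl1 to 1.43 and Tnfsf8 to 6.21 (control replicate 2 alone has 1 and 0 UMIs of these last, so the values rest on the prior count and show no direction); Tmem176a turned to -0.46 without Rbpj-deleted replicate 2, and Lyz2, against CD8-positive cells, to -0.90. Of named called genes, DESeq2 kept 9 of 38 for the Rbpj contrast and 40 of 69 against CD8-positive cells. Of the planned fits, leave-outs, the block and the strict macrophage gate for the Rbpj contrast, leave-outs against CD8-positive cells and, within members, the macrophage settings and most leave-outs were not run, since too few libraries were left. Foxp3-positive cells were too few to test. At 10 members, control replicate 2 limits all tumour comparisons.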
